A study of Mus musculus with 6 samples.

Results

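Simple epithelial keratins are the intermediate filament proteins of single-layered epithelia such as the gut lining. The 6 genes described here, Krt7, Krt8, Krt18, Krt19, Krt20 and Krt23, were chosen by gene symbol. No measured value entered that rule, but earlier results of these data were known when the genes were chosen. They are 6 of 21878 gene rows, and all 6 passed the filter on low values, as did 11389 genes in all.

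The 6 libraries came from small intestine tumors of Prkci f/f Prkcz f/f;Villin-Cre mice aged 14 weeks, 3 from mice given PEGPH20 (replicates 4, 5 and 6) and 3 from mice given vehicle (replicates 1, 2 and 3). PEGPH20 is a pegylated recombinant human hyaluronidase, an enzyme that degrades the matrix polysaccharide hyaluronan. Doses of 0.0375 mg/kg were given 2 times per week for 3 weeks from 11 weeks of age. Both groups carry the same floxed alleles of the atypical protein kinase C genes Prkci and Prkcz, and both carry Villin-Cre, which drives recombination in the intestinal epithelium. The stroma of these tumors is therefore not the compartment in which the alleles were targeted, and no library from mice without the deletion was analysed here. Nothing in the labels ties the 3 tumors of a group to different mice, so p-values reflect only how far these samples spread, which may be technical. QuantSeq libraries yield tags from the 3' end of each transcript, so levels in CPM (counts scaled to a library total of 1000000) are not divided by gene length. A tag that lies outside the deleted part of Prkci or Prkcz cannot show the deletion. Prkci had 37.1, 23.3 and 22.8 CPM with PEGPH20, against 15.9, 28.3 and 26.0 CPM with vehicle, and Prkcz had 9.88, 16.7 and 7.28 CPM against 8.67, 3.44 and 3.06 CPM, with overlapping groups for both genes.

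Libraries held 2075588 to 2832876 reads, so that 1 read was worth 0.353 to 0.482 CPM. PEGPH20 replicate 5 stood apart: across all genes its log2(CPM + 1) values correlated with those of the other libraries at 0.937 to 0.958, while the lowest correlation among the other 5 libraries was 0.971. Mitochondrial mRNA took 5.15% of its reads, against 3.34% to 3.99% in the others. The members' differences are given with and without this library, while the profile distances and nearest genes use all 6 libraries.

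Keratin filaments are built from obligate pairs of 1 type I (acidic) and 1 type II (basic) chain. Krt8 and Krt7 are type II chains, and Krt18, Krt19, Krt20 and Krt23 are type I chains. Krt8 with Krt18 and Krt19 form the filament network of intestinal epithelial cells, where they take part in resistance to stress and in barrier function. Krt20 marks differentiated cells of the intestinal villus and surface, and Krt7 is a chain of ductal and glandular epithelia that is low in normal intestine.

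On GRCm38, Krt7 lies on chromosome 15 at 101411043 to 101430313 (plus strand), Krt8 at 101996698 to 102004482 (minus strand) and Krt18 at 102028180 to 102032027 (plus strand). Krt20 lies on chromosome 11 at 99428403 to 99438150, Krt23 at 99477974 to 99493137 and Krt19 at 100140810 to 100148665, all on the minus strand. These are whole gene spans from GENCODE M21. Krt8 and Krt18 are neighbours that point away from each other across 23.7 kb, with 0 annotated genes between them. Krt20 and Krt23 are neighbours on the same strand, 39.8 kb apart and again with 0 annotated genes between them. Promoter sequences were matched for 5 of the 6 genes, all but Krt19. The promoters of both neighbour pairs are shown because Krt8 and Krt18 are partner chains, while Krt20 and Krt23 had the smallest and the largest difference between the treatments. Each is the 250 bases before the RefSeq transcription start on GRCm38.p6, given 5′ to 3′ along the gene's strand, and capitals mark matches to the motifs named after them.
Krt20 (chr11:99438154-99438403, minus strand): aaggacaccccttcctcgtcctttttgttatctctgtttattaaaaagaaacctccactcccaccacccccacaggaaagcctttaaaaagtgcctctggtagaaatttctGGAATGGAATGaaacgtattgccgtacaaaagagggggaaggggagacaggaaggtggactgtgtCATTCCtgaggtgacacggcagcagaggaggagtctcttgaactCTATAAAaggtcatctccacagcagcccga
Krt23 (chr11:99493121-99493370, minus strand): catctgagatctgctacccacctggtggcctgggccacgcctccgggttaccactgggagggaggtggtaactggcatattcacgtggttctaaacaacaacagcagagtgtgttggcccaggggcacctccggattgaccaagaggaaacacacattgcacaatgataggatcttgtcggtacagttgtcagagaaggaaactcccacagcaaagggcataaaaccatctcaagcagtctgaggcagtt
Krt8 (chr15:102004343-102004592, minus strand): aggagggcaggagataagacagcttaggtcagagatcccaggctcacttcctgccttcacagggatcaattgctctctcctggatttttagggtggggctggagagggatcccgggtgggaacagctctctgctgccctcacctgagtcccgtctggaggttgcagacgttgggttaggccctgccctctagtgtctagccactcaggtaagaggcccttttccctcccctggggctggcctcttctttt
Krt18 (chr15:102027966-102028215, plus strand): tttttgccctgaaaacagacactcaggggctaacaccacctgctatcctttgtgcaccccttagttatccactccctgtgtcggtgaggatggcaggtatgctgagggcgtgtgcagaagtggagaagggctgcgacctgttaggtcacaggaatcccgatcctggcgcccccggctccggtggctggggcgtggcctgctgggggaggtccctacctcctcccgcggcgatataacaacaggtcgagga

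The motifs were searched on both strands as exact letters. The TATA box, which positions the start of transcription, was searched as TATAAA. The GC box of the SP and KLF factors was searched as GGGCGG. The AP-1 element was searched as TGANTCA, and the element of the TEAD factors as GGAATG. The element of the CDX factors, homeobox proteins of the intestine, was searched as TTTATNG. The Krt20 window held 1 TATAAA match at bases 29 to 24 before the start. It also held 3 GGAATG matches, of which those at bases 139 to 134 and 134 to 129 overlap by a base and the one at bases 74 to 69 is on the opposite strand. Its single TTTATNG match, on the opposite strand at bases 30 to 24, covers the TATA box. The windows of Krt23, Krt8 and Krt18 held no match to these letters, and the Krt7 window held 4 GGGCGG matches only. Among 32544 promoters of the same length, 12.3% held the TATA box, 33.0% the GC box, 6.73% the AP-1, 12.6% the TEAD and 9.74% the CDX letters. GC content was 48.0% for Krt20, 52.8% for Krt23, 58.0% for Krt8, 60.4% for Krt18 and 66.0% for Krt7, beside a median of 52.4% over all promoters.

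In PEGPH20 tumors 5 of the 6 simple keratins had lower tag levels in every library than in any vehicle tumor, and Krt20 did not. With all 6 libraries none of the 6 differences passed the test (limma with trend, Benjamini-Hochberg adjusted over 11389 genes, threshold 0.05), and neither did any under edgeR's quasi-likelihood test or DESeq2 on recovered reads. Of all genes tested, limma called 0.079%, edgeR 0.0878% and DESeq2 2.43%. At an unadjusted p under 0.05, 1 of the 6 members was lower, Krt23, beside 11.5% of all genes. Groups that do not overlap with PEGPH20 below occurred in 17.6% of all genes tested. Without PEGPH20 replicate 5, limma called 1 member lower, Krt23, beside 2.06% of all genes, and 5 of the 6 were lower at an unadjusted p under 0.05, beside 11.0% of all genes. The median log2 difference over the 6 members was -1.02 with all libraries, where that of all genes tested was -0.09, and -0.32 without PEGPH20 replicate 5, where that of all genes was -0.02. In bulk tumors, fewer cells of a type and less RNA per cell cannot be told apart.

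**Figure D1:**
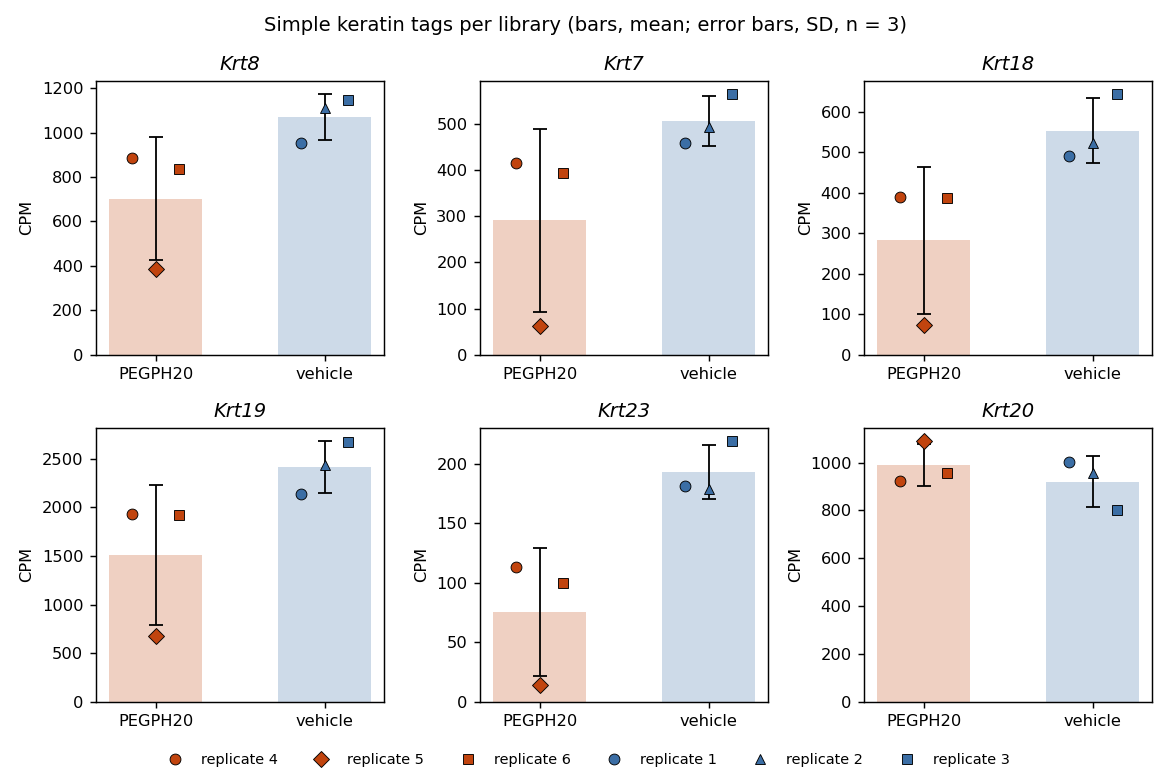
Tag level of each simple keratin in CPM on a linear axis from 0, with PEGPH20 libraries left of vehicle libraries. Points are libraries, bars the mean and error bars the SD over 3 libraries; PEGPH20 replicate 5 is the lowest point in every panel but that of Krt20, where it is the highest at 1089 CPM.

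Among the type II chains, Krt8, the partner of Krt18 and Krt19 throughout simple epithelia, had 886, 385 and 838 CPM in PEGPH20 replicates 4, 5 and 6, against 952, 1113 and 1146 CPM in vehicle replicates 1, 2 and 3. All PEGPH20 libraries lay below all vehicle libraries, replicate 5 far below and the other two closer to the lowest vehicle tumor. The means were 703 ± 276 CPM with PEGPH20 and 1070.1 ± 104 CPM with vehicle (SD, n = 3 each). The log2 difference was -0.69 (SE 0.31, 95% interval -1.41 to 0.02, limma adjusted p = 0.285), and without PEGPH20 replicate 5 it was -0.31 (interval -0.56 to -0.06, limma adjusted p = 0.174).

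Krt7, the other type II chain, had 417, 62.1 and 395 CPM in the PEGPH20 tumors, against 459.6, 493 and 565 CPM in the vehicle tumors. Here too the groups did not overlap, and a single PEGPH20 library set most of the difference. That library held 12.3% of the vehicle mean, while PEGPH20 replicates 4 and 6 held 82.3% and 78.0%. The means were 291 ± 199 CPM with PEGPH20 and 506 ± 54.0 CPM with vehicle (SD, n = 3 each). The log2 difference was -1.21 (SE 0.66, interval -2.74 to 0.32, limma adjusted p = 0.358), and -0.31 without replicate 5 (limma adjusted p = 0.174). In PEGPH20 replicates 4 and 6 Krt7 and Krt8 thus held almost the same part of their vehicle means, since Krt8 was at 82.8% and 78.3%. In replicate 5 they did not: Krt8 was at 36.0% of its vehicle mean there.

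Among the type I chains, Krt18, the usual partner of Krt8, had 389, 72.9 and 386 CPM with PEGPH20, against 491, 523 and 643 CPM with vehicle. PEGPH20 replicates 4 and 6 were close to each other and below every vehicle tumor. The means were 283 ± 182 CPM with PEGPH20 and 553 ± 80.1 CPM with vehicle (SD, n = 3 each), a log2 difference of -1.30 (SE 0.59, interval -2.67 to 0.08, limma adjusted p = 0.297). Without replicate 5 it was -0.50 (interval -0.78 to -0.23), next to the threshold but not past it (limma adjusted p = 0.0607).

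Krt19, which has no tail domain and pairs with Krt8 in the intestine, was the most abundant keratin by tags in 5 of the 6 libraries. It had 1937, 675 and 1919 CPM with PEGPH20, against 2138, 2435 and 2670.3 CPM with vehicle. The groups did not overlap, and in PEGPH20 replicate 5 it was second to Krt20. The means were 1510.3 ± 723 CPM with PEGPH20 and 2414 ± 267 CPM with vehicle (SD, n = 3 each). The log2 difference was -0.82 (SE 0.39, interval -1.73 to 0.08, limma adjusted p = 0.309), and -0.32 without replicate 5 (limma adjusted p = 0.182).

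Krt23, a type I keratin that lies beside Krt20 and whose function is less well known, was the least abundant of the 6 and had the largest difference. It had 113, 13.8 and 99.7 CPM with PEGPH20, against 181, 179 and 219 CPM with vehicle. Every PEGPH20 library lay well below the lowest vehicle library, and replicates 4 and 6 held 58.6% and 51.7% of the vehicle mean where replicate 5 held 7.13%. Its 13.8 CPM in replicate 5 rest on 33 reads, against 376 to 573 reads per vehicle library. The means were 75.5 ± 53.9 CPM with PEGPH20 and 193 ± 22.7 CPM with vehicle (SD, n = 3 each). The log2 difference was -1.80 (SE 0.70, interval -3.43 to -0.17, limma adjusted p = 0.242). Without replicate 5 it was -0.85 (interval -1.14 to -0.56) and passed the test, with an adjusted p of 0.00789 by limma, 0.00458 by edgeR and 0.000288 by DESeq2, which called 2.15% and 1.4% of all genes lower. The call made from 2 PEGPH20 libraries is therefore not one that all 3 give. The edgeR and DESeq2 fits without replicate 5 were chosen after the data were seen.

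Krt20, the keratin of differentiated enterocytes and goblet cells, had 924, 1089 and 957 CPM with PEGPH20, against 1002, 958 and 799.7 CPM with vehicle. The groups overlapped, and the highest value of all was in PEGPH20 replicate 5, the library in which each of the 5 others was lowest, as were 45.3% of all genes tested. The means were 990.1 ± 87.5 CPM with PEGPH20 and 919.8 ± 106 CPM with vehicle (SD, n = 3 each). The log2 difference was 0.11 (SE 0.14, interval -0.22 to 0.44, limma adjusted p = 0.699), and without replicate 5 it was 0.04 (interval -0.22 to 0.30, limma adjusted p = 0.906). The interval with all libraries leaves room for a change of either sign. For the other 5 members the log2 difference from the vehicle mean in replicate 5 ran from -1.47 for Krt8 to -3.71 for Krt23, where 15.2% of all genes tested lay more than 1 log2 unit below.

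**Figure D2:**
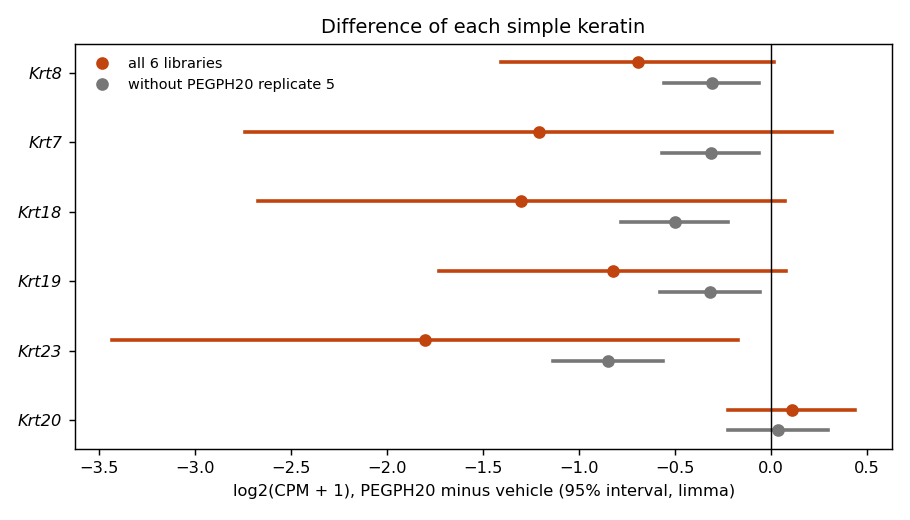
Difference in log2(CPM + 1), PEGPH20 minus vehicle, for each simple keratin with its 95% limma interval, with all libraries and without PEGPH20 replicate 5. Krt23 is farthest from 0 in both, at -1.80 and -0.85, and Krt20 sits at 0.11 and 0.04.

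The order of tag levels over the vehicle means was Krt19, Krt8, Krt20, Krt18, Krt7 and Krt23. Krt8 (952 to 1146 CPM) and Krt20 (799.7 to 1002 CPM) overlapped in the vehicle libraries, as did Krt18 (491 to 643 CPM) and Krt7 (459.6 to 565 CPM), but within libraries the pairs differed. Krt8 was below Krt20 in vehicle replicate 1 and above it in replicates 2 and 3, so their order was not fixed, while Krt18 was above Krt7 in all 3 vehicle libraries. Over the PEGPH20 means the order was Krt19, Krt20, Krt8, Krt7, Krt18 and Krt23. These orders are of 3' tags, whose capture can differ between genes.

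The 6 genes made up nearly all keratin mRNA of the tumors. They took 99.6% to 99.8% of the reads of the 29 keratin genes in the table. The 23 other keratins, mostly of skin, hair and squamous epithelia, summed to 18.7, 5.0 and 13.7 CPM with PEGPH20, against 13.5, 16.4 and 21.8 CPM with vehicle. Over all 6 libraries the basal squamous keratins Krt5 and Krt14 had 3 and 24 reads, and Krt4, Krt13 and Krt6a had 12, 4 and 6. The only other keratin that passed the filter was Krt10, a keratin of differentiating epidermis, with 4.59, 2.92 and 5.92 CPM with PEGPH20 against 2.41, 3.06 and 6.12 CPM with vehicle (log2 difference 0.21, limma adjusted p = 0.786, and 0.43, adjusted p = 0.62, without replicate 5). The pseudogene Krt8-ps had 1 read in a PEGPH20 library and 1 in a vehicle library, and reads that Krt8 shares with such copies may have been split by the authors' counting.

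**Figure D3:**
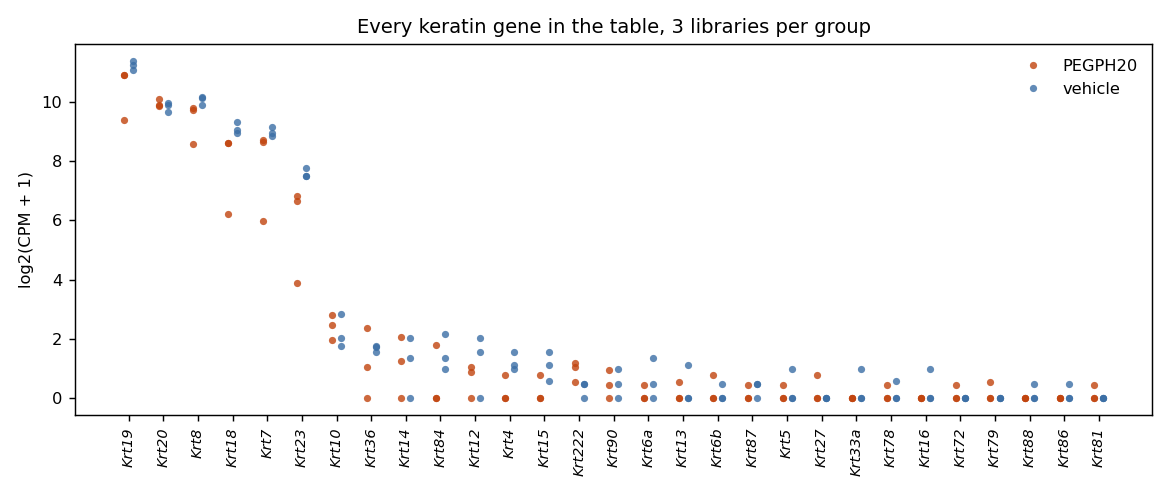
Level of the 29 keratin genes in log2(CPM + 1), ordered by total reads over all libraries, with the 3 PEGPH20 libraries left of the 3 vehicle libraries for each gene. The simple keratins form the 6 leftmost columns, and each of the 23 others stays below 3 on this scale in every library.

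Summed over the 6 genes, the keratin level was 4665, 2298 and 4594 CPM with PEGPH20, against 5224, 5701 and 6043 CPM with vehicle. The PEGPH20 mean of 3852 ± 1346 CPM was 0.681 of the vehicle mean of 5656 ± 412 CPM (SD, n = 3 each), or 0.819 of it without replicate 5. Every PEGPH20 tumor lay below every vehicle tumor. Krt20 made up 19.8%, 47.4% and 20.8% of this sum with PEGPH20, against 19.2%, 16.8% and 13.2% with vehicle. Its share was thus higher in each PEGPH20 library, but replicates 4 and 6 exceeded the highest vehicle library only slightly, and the mean difference was 12.9 points with replicate 5 and 3.91 without it. Krt19 made up 41.5%, 29.4% and 41.8% with PEGPH20, against 40.9%, 42.7% and 44.2% with vehicle. Krt8 held a nearly fixed part of the sum, at 19.0%, 16.8% and 18.2% with PEGPH20 and 18.2%, 19.5% and 19.0% with vehicle.

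**Figure D4:**
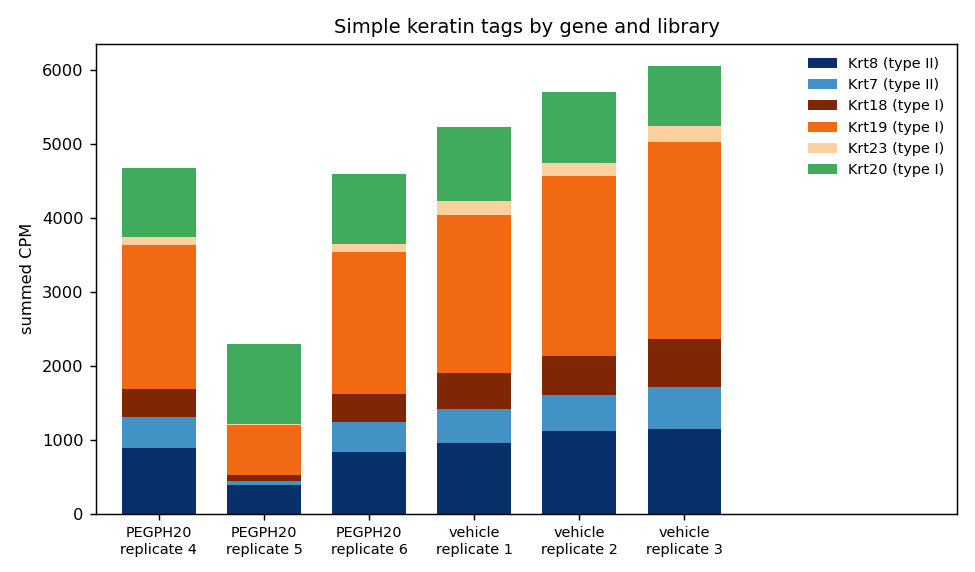
Summed CPM of the 6 simple keratins, stacked by gene, in the 3 PEGPH20 libraries and then the 3 vehicle libraries. The stacks reach 2298 to 4665 CPM with PEGPH20 and 5224 to 6043 CPM with vehicle, and the Krt20 segment keeps a like height in all 6 libraries.

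The balance of type I to type II tags was 2.58, 4.14 and 2.73 with PEGPH20, against 2.70, 2.55 and 2.53 with vehicle. With Krt20 left out of the type I sum it was 1.87, 1.70 and 1.95, against 1.99, 1.95 and 2.06, so that replicate 5 was high with Krt20 counted and low without it. Krt19 and Krt8 kept a like proportion outside PEGPH20 replicate 5, where it was lower: their ratio was 2.19, 1.75 and 2.29 with PEGPH20 and 2.25, 2.19 and 2.33 with vehicle. The ratio of Krt7 to Krt18, chains of opposite type, was 1.07, 0.851 and 1.02 with PEGPH20 and 0.935, 0.942 and 0.879 with vehicle. Krt8 to Krt18, the classical partners encoded side by side, was 2.28, 5.28 and 2.17 with PEGPH20, against 1.94, 2.13 and 1.78 with vehicle. This ratio was higher in every PEGPH20 library, most of all in replicate 5. In replicates 4 and 6 the ratio of Krt7 to Krt18 also lay above every vehicle library. The ratios of Krt7 and of Krt8 to Krt18 thus parted only in replicate 5, where the former was the lowest of all libraries. The ratio of Krt23 to Krt19 was lower in every PEGPH20 library, at 0.058, 0.020 and 0.052, against 0.085, 0.073 and 0.082 with vehicle.

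Whole profiles were also set side by side. The measure is the root mean square difference between log2(CPM + 1) profiles, each centred on its mean over the 6 libraries, and is a description of these libraries only. Apart from the added 1 CPM, it is the spread of a pair's log2 ratio. It therefore restates the ratios above and is no separate evidence for them. Krt7 and Krt18 were the closest members at 0.114, followed by Krt8 and Krt19 at 0.138. In PEGPH20 replicate 5 Krt7 and Krt18 were alike, at 12.3% and 13.2% of their vehicle means. In replicates 4 and 6 Krt18 held 70.4% and 69.8%, while Krt7 held 82.3% and 78.0%. There Krt7 was nearer to Krt8 (82.8% and 78.3%) and Krt19 (80.2% and 79.5%), so its closeness to Krt18 depends on replicate 5. Krt23 lay at 0.302 from Krt18 and 0.306 from Krt7, and Krt20 lay from 0.633 (Krt8) to 1.416 (Krt23) from the others. The neighbouring genes Krt20 and Krt23 were thus the least alike pair of the 6.

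Among 4703 other genes with a mean log2(CPM + 1) of at least 5, the nearest profile to both Krt7 (0.054) and Krt18 (0.10) was that of Lama3, a laminin chain of the epithelial basement membrane. The nearest to Krt8 was Itgb4 (0.030), an integrin chain of hemidesmosomes. Itgb4 had 84.0, 36.7 and 78.7 CPM with PEGPH20, against 88.6, 101 and 108 CPM with vehicle, and Lama3 had 103, 15.8 and 108 CPM against 126, 136 and 156 CPM. Next to Krt7 came S100a11 (0.101) and Capg (0.115), next to Krt8 Ccnd2 (0.031) and Sept8 (0.049), and next to Krt18 Pmepa1 (0.132) and Slc2a1 (0.14). Krt19 was most like Diaph2 (0.072), Pglyrp1 (0.086) and Ctnnal1 (0.087), and the 3 genes most like Krt23 included Cgnl1 (0.116), a protein of cell junctions, and Myof (0.15). Krt20 was most like Sel1l (0.048), Amn1 (0.051) and Akap7 (0.055).

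Since bulk tumors mix epithelium and stroma, the keratins were also set against 8 general epithelial genes (Epcam, Cdh1, Cldn7, Elf3, Esrp1, Grhl2, Spint1 and Spint2). These summed to 4279, 3416 and 4168 CPM with PEGPH20, against 3644, 3781 and 4241 CPM with vehicle, and the groups overlapped. The summed keratins per CPM of these genes were 1.09, 0.673 and 1.10 with PEGPH20, against 1.43, 1.51 and 1.42 with vehicle. The ratio of the group means was 0.656, and 0.753 without replicate 5, so the keratins were low beside these genes also in PEGPH20 replicates 4 and 6. With libraries scaled to equal sums of these genes and replicate 5 left out, limma called 4 members lower beside 4.59% of all genes: Krt23 (adjusted p = 0.000641), Krt18 (adjusted p = 0.00717), Krt7 (adjusted p = 0.040) and Krt8 (adjusted p = 0.0482). This combination was chosen after the data were seen. Krt19 just missed the threshold (limma adjusted p = 0.0512), and Krt20 had a log2 difference of -0.08 (limma adjusted p = 0.803). The scaling moved the median of all genes without replicate 5 to -0.13, where it was -0.02 before scaling, and the median of the 6 members to -0.44, where it was -0.32. With all 3 PEGPH20 libraries it called 0 of the 6, beside 0.176% of all genes.

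Marker lists of other cells stood apart in PEGPH20 replicate 5 as the keratins did, and some also differed in the other PEGPH20 libraries. Their part in the result was not tested. The 14 enterocyte markers, all measured, summed to 7087, 22118 and 7404 CPM with PEGPH20, against 4518 to 9403 CPM with vehicle, and the 7 Paneth cell markers to 867, 4362 and 452 CPM against 366 to 578 CPM. Both lists were highest in replicate 5, as was Krt20, and in replicate 6 both lay within the vehicle range. The 8 fetal-like epithelial markers summed to 1456, 110.0 and 1499 CPM with PEGPH20, against 1548 to 1903 CPM with vehicle. All 8 had a lower mean, beside 59.8% of all genes tested. Without replicate 5, 6 of the 8 did, beside 6193 of 11827 genes. The 7 measured of 8 gastric-type markers summed to 372, 11.3 and 520 CPM with PEGPH20, against 355 to 431 CPM with vehicle. The fetal-like and gastric-type sums were both lowest in replicate 5, as were the 5 other simple keratins. In replicates 4 and 6 the fetal-like sum stayed below every vehicle library, and the gastric-type sum did not. The 7 fibroblast markers summed to 1622, 616 and 1412 CPM with PEGPH20 against 2979 to 3065 CPM with vehicle, and the 6 endothelial markers to 152, 93.8 and 140 CPM against 250 to 271 CPM, lower in every PEGPH20 library. Without replicate 5 limma called 5 of the 7 fibroblast and 3 of the 6 endothelial markers lower, beside 2.06% of all genes. It also called 1 of 4 tested gastric-type and 1 of 2 tested mesothelial markers lower. In each of these latter lists the called marker was the only 1 with a lower mean, and the gastric-type median log2 difference was 0.63. In that fit 1 enterocyte, 1 Paneth cell and 1 goblet marker were called higher, beside 0.981% of all genes. Of 4 tested tuft markers 1 was called lower, beside 2.06% of all genes. None of the fetal-like markers was called in either direction. The 5 measured of 6 markers of mesothelium, a keratin-bearing lining, summed to 5.0 to 32.1 CPM with PEGPH20 and 40.9 to 63.8 CPM with vehicle, lower in every PEGPH20 library. Most of their reads were of Msln and Upk1b, while Upk3b, Wt1 and Muc16 had 2, 5 and 2 reads in all 6 libraries. The 8 measured of 11 squamous markers summed to 2.92 to 10.9 CPM with PEGPH20 and 8.79 to 17.6 CPM with vehicle.

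**Figure D5:**
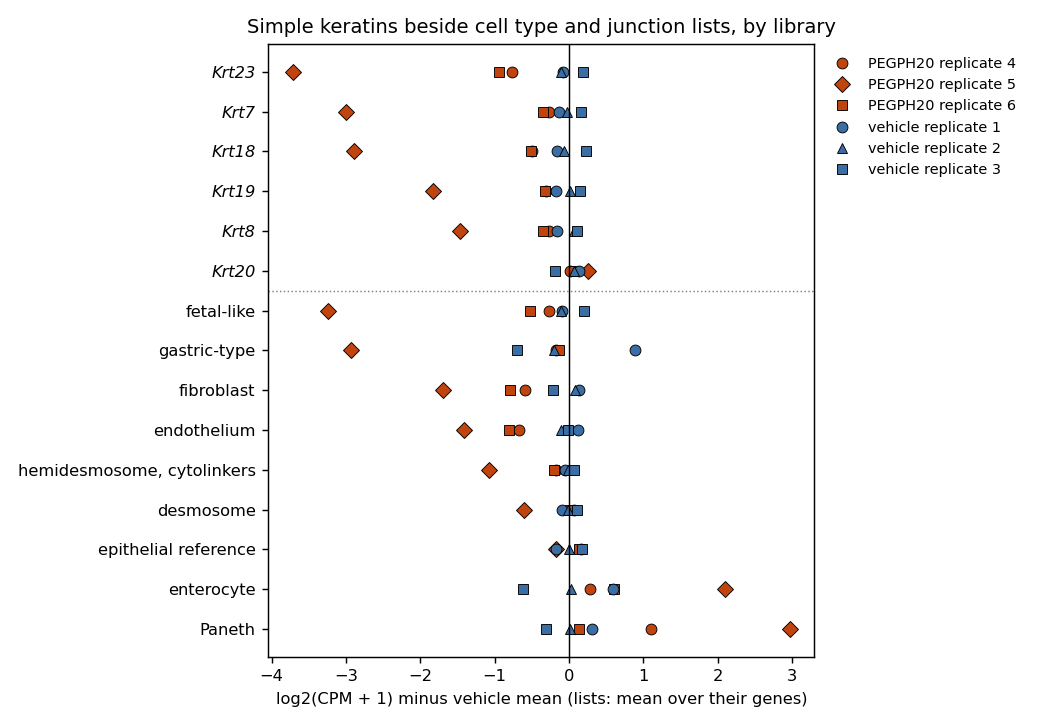
Log2(CPM + 1) minus the vehicle mean in each library for the 6 simple keratins and, under the dotted line, the mean over the genes of 9 lists. PEGPH20 replicate 5 (diamonds) is far left for Krt23 (-3.71), Krt7 (-3.00), the fetal-like list (-3.25) and the fibroblast list (-1.69), near 0 for Krt20 (0.25) and the epithelial reference (-0.17), and far right for the enterocyte (2.09) and Paneth (2.96) lists.

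Of the 5 lists of genes that anchor, tend or regulate keratin filaments, none gave a call with all libraries by limma, edgeR or DESeq2. At an unadjusted limma p under 0.05 they held 2 of 7 tested other intermediate filament genes, 1 of 8 desmosomal genes, 1 of 8 hemidesmosome and cytolinker genes, 0 of 10 keratin-binding and chaperone genes and 4 of 17 epithelial transcription factors, beside 18.0% of all genes in either direction. Hemidesmosomes and cytolinkers tie keratins to the basement membrane and to other cytoskeletal fibres. All 8 tested members of that list, of 10 listed, had a lower mean with PEGPH20, with a median log2 difference of -0.53 (-0.22 without replicate 5), while 59.8% of all genes tested had a lower mean. Itga6, the partner of Itgb4, had 528, 285 and 554 CPM with PEGPH20, against 694, 680.2 and 721 CPM with vehicle (log2 difference -0.68, limma adjusted p = 0.223, and -0.37, adjusted p = 0.0699, without replicate 5). Its groups did not overlap, and replicates 4 and 6 were again close to each other. Macf1, a linker of actin and microtubules, had a log2 difference of -0.50 (limma adjusted p = 0.281, and -0.24, adjusted p = 0.254, without replicate 5).

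Desmosomes join the keratin networks of adjacent cells. Of 8 desmosomal genes, 6 had a lower mean, beside 59.8% of all genes tested, with a median log2 difference of -0.17. Without replicate 5, 4 did, beside 6193 of 11827 genes, and the median was 0.01. Dsp, the desmoplakin that binds keratin filaments, had 741, 430 and 712 CPM with PEGPH20, against 774, 791 and 887 CPM with vehicle (log2 difference -0.42, limma adjusted p = 0.339, and -0.17, adjusted p = 0.436, without replicate 5). The plakophilin Pkp3 had a log2 difference of -0.52 (limma adjusted p = 0.245, and -0.30, adjusted p = 0.237, without replicate 5). These were the only 2 of the 8 whose PEGPH20 libraries all lay below the vehicle libraries, where 17.6% of all genes did. Of 10 keratin-binding and chaperone genes, 9 had a lower mean (median -0.26), and 7 did without replicate 5 (median -0.08). Tchp, a keratin-binding protein, had a log2 difference of -0.55 (limma adjusted p = 0.282, and -0.40, adjusted p = 0.468, without replicate 5). The chaperone Hspa8 was the exception with all libraries, at 188, 145 and 198 CPM with PEGPH20 against 134, 134 and 150.2 CPM with vehicle (log2 difference 0.33, limma adjusted p = 0.300). Its groups overlapped, and without replicate 5 they did not, with a log2 difference of 0.47 (limma adjusted p = 0.0537). In that setting edgeR called Hspa8 higher (adjusted p = 0.0339) and DESeq2 did not (adjusted p = 0.0799).

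Of 14 other intermediate filament genes, 7 were tested and 5 had a lower mean, with a median log2 difference of -0.15. Without replicate 5, 4 did, with a median of -0.06. Vim, the vimentin of mesenchymal cells, had 89.3, 43.3 and 70.1 CPM with PEGPH20, against 120.4, 116 and 118 CPM with vehicle. Its log2 difference of -0.86 did not pass (limma adjusted p = 0.172). Without replicate 5 it was -0.57 and was called (limma adjusted p = 0.048), beside 2.06% of all genes called lower. That call was also made by edgeR (adjusted p = 0.0373) and not by DESeq2 (adjusted p = 0.108). Nes, the nestin of progenitor and vascular cells, had a log2 difference of -0.80 (limma adjusted p = 0.205, and -0.52, adjusted p = 0.233, without replicate 5). Of 17 epithelial transcription factors, 8 had a lower mean, with a median of 0.03 (0.06 without replicate 5). Gata4, a factor of the proximal small intestine, had 30.4, 50.01 and 48.2 CPM with PEGPH20, against 26.5, 21.8 and 10.3 CPM with vehicle (log2 difference 1.16, limma adjusted p = 0.182, and 1.03, adjusted p = 0.143, without replicate 5). Hnf4a, a factor of enterocyte differentiation, had 222, 217 and 234 CPM against 163, 187 and 187 CPM (log2 difference 0.33, limma adjusted p = 0.222, and 0.35, adjusted p = 0.129, without replicate 5). Both had higher values in every PEGPH20 library, replicate 5 included, but neither passed the test. PEGPH20 libraries that all lay above the vehicle libraries occurred for 4 of the 17 factors, beside 1106 of 11389 genes tested.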

How the data were processed

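Small intestine tumors were profiled with QuantSeq 3' mRNA libraries from 200 ng of RNA, read from a single end over 75 nt, per the labels' protocols. The authors deposited a signal in CPM, that is gene counts scaled to a library total of 1000000, as the sums of the columns show. A row of totals names no gene, took 0% of the gene sum and was left out. Genome build GRCm38 is named per the submitters' processing notes. For the aligner and the counter, the sources used here give no name. Whether molecular identifiers were used is not stated there either, so no counting intervals are given. Reads were recovered by division, and 100% of values came out whole within 1e-06 of a read. A count of 0 allows up to 3 reads, or 1.06 to 1.45 CPM. Identifiers were matched to GENCODE M21 on the same build (21786 matched, 92 not), and promoters came from RefSeq (GRCm38.p6). Gm671 overlaps Krt7 and Gm36026 overlaps Krt8 on the other strand, and neither has a row in the table used here.

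Groups followed the treatment label, and the labels give no batch and no replicate number shared between groups. No libraries were duplicates (chi-square per degree of freedom 2.42 to 35.8 over the pairs, genes with at least 60 reads). limma 3.58.1 with trend was fitted to log2(CPM + 1) of genes kept by filterByExpr on recovered reads (edgeR 4.0.16, minimum count 10), with Benjamini-Hochberg adjustment over all genes tested and a threshold of 0.05. Differences are PEGPH20 minus vehicle on that scale, which understates changes of low genes. DESeq2 1.42.0, edgeR's quasi-likelihood test, voom, other scalings, filters and pseudocounts (0.1 and 5), and leaving out each library with the filter applied anew, were alternatives. The script was tested on simulated data. The named genes were the 6 members, other keratins past the filter, the 2 genes of each pathway list with the smallest p-values, the 3 nearest profiles of each member, Prkci and Prkcz. One gene that this rule names is not reported here. Any other gene named was chosen after its values were seen. The members and lists were chosen with earlier results of these data known. R 4.3.3 and Python 3.11.15 were used.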

Additional observations from a re-analysis of the deposited data

How the results depend on the processing

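The number of genes called, 9 by limma with all libraries, was 20 with scaling to the epithelial genes, 29 with no filter, 277 by DESeq2, 18 by limma-voom, 269 by voom with quality weights and 14 by limma without trend, and 1 to 360 when each library was left out in turn: 360 without PEGPH20 replicate 5, 4 without PEGPH20 replicate 4, and 1 without PEGPH20 replicate 6 or any vehicle library. Alternatives chosen after seeing the data, all without PEGPH20 replicate 5, gave 431 by edgeR, 280 by DESeq2, 625 with scaling to the epithelial genes and 400 with TMM. Members called numbered 0 to 1 over the left-out libraries, and without replicate 5 numbered 1 by edgeR, 1 by DESeq2, 4 with scaling to the epithelial genes and 1 with TMM. The summed keratin level ran from 0.609 to 0.819 of the vehicle mean over the left-out libraries, the keratins per CPM of epithelial genes from 0.606 to 0.753, and the difference in the Krt20 share from 3.91 to 17.7 points. RLE scaling moved the median of all genes to 0.01, where it was -0.09, and that of the members to -0.91, where it was -1.02. Krt20, not called, was at -0.08 with scaling to the epithelial genes without replicate 5, and no sign changed for the other 5 members in any setting run. Over all planned settings that kept every library, log2 differences ran from -1.83 to -1.06 for Krt23, -1.32 to -0.68 for Krt18, -1.23 to -0.52 for Krt7, -0.84 to -0.43 for Krt19, -0.71 to -0.40 for Krt8 and 0.09 to 0.22 for Krt20. Depth limits the keratins outside the 6 members, of which 1 of 23 passed the filter. No paired analysis was possible because the groups share no replicate number.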

Other observations

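Remaining marker lists are described here, and their part in the result was not tested. The 8 goblet markers summed to 3186 to 5361 CPM with PEGPH20 and 3559 to 3837 CPM with vehicle. The 8 stem and cycling markers summed to 636 to 739 CPM and 668 to 739.5 CPM, so these ranges overlapped as well. The 7 measured tuft markers summed to 65.4 to 98.1 CPM with PEGPH20 and 127 to 167 CPM with vehicle, without overlap of the sums. Their mean log2(CPM + 1) did overlap, at -0.08 from the vehicle mean in PEGPH20 replicate 4 and -0.27 in vehicle replicate 3. Of the 4 tested, 1 had every PEGPH20 library below every vehicle library, beside 17.6% of all genes tested. The 8 enteroendocrine markers summed to 89.7 to 268 CPM with PEGPH20 and 72.2 to 114 CPM with vehicle. The 6 measured leukocyte markers summed to 102 to 135 CPM and 81.8 to 89.6 CPM, so the sum was higher in every PEGPH20 library. Of the 4 tested, 2 had a higher and 2 a lower mean, and limma called none. Only 1 had every PEGPH20 library above every vehicle library, beside 1106 of 11389 genes tested. The 6 smooth muscle markers summed to 361 to 545 CPM with PEGPH20 and 501 to 625 CPM with vehicle.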
